A study of Mus musculus with 6 samples.

Results

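This report concerns 10 genes for goblet cell products, their maturation factors and the mucins of the brush border, measured in mouse duodenal epithelium with and without Esrra. They were taken by symbol from the deposited table of 22611 genes, and all 10 were present under the older symbols of that table: Muc2, Tff3, Fcgbp, Zg16, Clca3, Spink4, Agr2, Spdef, Muc13 and Muc3. Clca3 is the gene that RefSeq now names Clca1. The choice used no measured value, but it was made with earlier results of these data known.

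The libraries came from the duodenal epithelium of 3 WT mice and 3 Esrra-/- mice, labelled ESRRAKO, with 1 library per mouse. The Esrra-/- mice carried a germline null allele, present in every tissue and not in the intestine alone, and the WT mice were littermate controls. The diet of all mice was high in fat, for about 8 weeks, and mice of both sexes were used in the experiments with Esrra-/- mice. Their age at collection is not given in the sources used here, and the colony was bred with a Villin-CreERT2 transgene. The epithelium was released from the first part of the small intestine with EDTA and mechanical force, and the labels describe no step that separated crypts from villi.

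Goblet cells are secretory cells of the intestinal epithelium that store mucin in granules and release it to form the mucus gel over the villi. Mucin is folded and joined by disulfide bonds in the endoplasmic reticulum, is coated with O-linked sugars in the Golgi and is released together with lectins, trefoil peptides and proteases that shape the gel. Enterocytes carry membrane-bound mucins of their own, which stay on the brush border as part of the glycocalyx.

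The authors deposited FPKM values (fragments counted on a gene per length of its transcript, on a scale that the methods give as relative to mapped reads). The summed FPKM differed between libraries while their median-ratio factors were all 1.00 to 1.01, so the deposited values were already level by that measure. The genotypes were compared here with limma on log2(FPKM + 0.1) over the 10596 genes with a mean FPKM above 1, a filter that all 10 genes passed. A log2 fold change is Esrra-/- over WT on that scale. A call, lower or higher, required an unadjusted p under 0.05 together with a fold change of more than 0.58 on the log2 scale, and adjusted p-values were taken over all genes tested by the method of Benjamini and Hochberg.

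Esrra itself had 49.4, 73.5 and 104 FPKM in WT and 10.4, 9.42 and 8.72 FPKM in Esrra-/- (log2 fold change −2.92, SE 0.26, limma adjusted p = 0.0215). Reads assigned to Esrra thus remained in the Esrra-/- libraries, at 12.6% of the WT mean, and their position along the gene cannot be read from values per gene. The enterocyte markers Fabp1 and Vil1 were high in every library, at 8820 FPKM or more and 673 FPKM or more, and Col1a1, a gene of mesenchymal cells, was at most 0.230 FPKM. Transcripts of 4 Y-linked genes summed to 27.3 to 46.7 FPKM in replicates 1 and 2 of each genotype and to 0.0487 to 0.222 FPKM in replicate 3 of each, so each genotype held 1 library without them. In bulk epithelium, fewer goblet cells and less RNA per goblet cell cannot be told apart.

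Upstream sequence was at hand for 6 of the 10 genes in the RefSeq promoter table (build GRCm38.p6): Muc2, Fcgbp, Agr2, Spdef, Muc13 and Muc3. The 250 bases before the start of Muc2 and of Fcgbp are shown because they encode the mucin and a protein bound to it in the gel and because each holds a match to a motif of secretory cell factors. Each holds 1 match to CAGCTG, an E-box (the kind of site bound by basic helix-loop-helix factors such as ATOH1), in capitals. Muc2 is on the plus strand at chr7:141690090-141690339 and Fcgbp on the plus strand at chr7:28070986-28071235.

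Muc2: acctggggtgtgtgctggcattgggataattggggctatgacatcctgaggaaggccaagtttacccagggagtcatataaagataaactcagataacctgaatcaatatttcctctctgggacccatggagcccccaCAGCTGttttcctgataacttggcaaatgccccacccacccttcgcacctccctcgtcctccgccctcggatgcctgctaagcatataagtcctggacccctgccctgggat
Fcgbp: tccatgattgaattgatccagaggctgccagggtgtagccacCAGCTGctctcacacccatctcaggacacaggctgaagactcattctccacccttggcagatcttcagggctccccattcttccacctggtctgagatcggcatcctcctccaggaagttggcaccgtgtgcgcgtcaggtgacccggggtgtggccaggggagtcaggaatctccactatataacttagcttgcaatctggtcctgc

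The match lies 112 bases before the Muc2 start and 208 bases before the Fcgbp start, counted to its first base. Of the 32851 windows of this length in the table, 4271 hold CAGCTG. The same windows were searched on both strands for AAGGTCA, the core of the site that estrogen-related receptors bind, for the longer TCAAGGTCA, which contains it, and for TGTTTAC, a forkhead site. Of the 7 windows of these genes, 1 held AAGGTCA and none held TCAAGGTCA or TGTTTAC, against 4.08%, 0.387% and 3.17% of all windows. The AAGGTCA match was before the second of 2 annotated starts of Muc13, on the minus strand, and stands in capitals in the plus strand of chr16:33794244-33794272.

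Muc13: acactcaccttTGACCTTgcaaggatttc

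The summed level of the goblet products was close between the genotypes. The 6 secreted products (Muc2, Tff3, Fcgbp, Zg16, Clca3 and Spink4) summed to 7289, 8757 and 7528 FPKM in WT and to 8331, 8143 and 7743 FPKM in Esrra-/-. All 3 Esrra-/- sums lay within the WT range, and their mean was 103% of the WT mean. The log2 ratio of the means was 0.04, and it was 0.12 without WT replicate 2, when all Esrra-/- sums lay above both remaining WT sums, and −0.01 without WT replicate 1. Within this sum the mean of Zg16, its largest term, was 3938 FPKM in WT and 4535 FPKM in Esrra-/-, while that of Spink4 was 1222 and 725 FPKM. As a share of the summed FPKM of all genes, the 6 products took 0.937% ± 0.164 in WT and 1.04% ± 0.160 in Esrra-/- (SD, n = 3 mice each).

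Of the 10 genes, 1 was called lower, Spink4, against 3.28% of all genes tested, and 0 were called higher, against 1.35%. By limma 0 of the 10 had an adjusted p under 0.05, as did 0.0378% of all genes tested, and 1 had an unadjusted p under 0.05, against 10.8% of all genes tested. The log2 fold change was positive for 6 genes and negative for 4, with a median of 0.25 where the median of all genes tested was 0.03. The genotypes did not overlap for 5 genes, Zg16, Clca3 and Muc13 with all Esrra-/- values above WT and Spink4 and Agr2 with all below, against 17.6% of all genes tested (8.45% above and 9.14% below). In the libraries with Y-linked transcripts and in the pair without them the log2 difference had the same sign for 10 of the 10 genes and for 66.6% of all genes tested. That pair is 1 library per genotype, and its difference was near 0 for Muc2 (0.01) and Tff3 (−0.03).

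**Figure D1:**
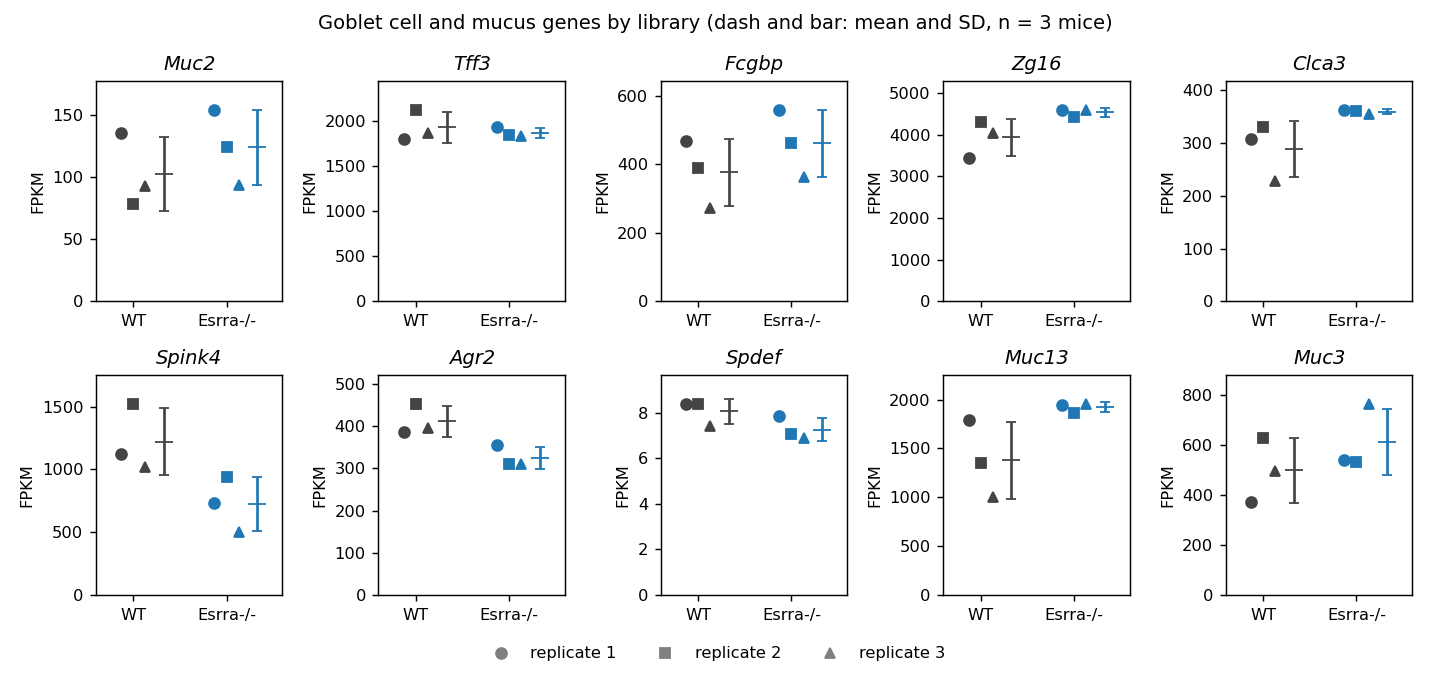
FPKM of the 10 genes in each library (linear axis from 0, a separate scale for each gene), with circle, square and triangle for replicates 1, 2 and 3 and a dash with bar for the mean and SD of 3 mice. The genotypes are apart for Zg16, Clca3, Muc13, Spink4 and Agr2 and overlap for the other 5 genes.

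**Figure D2:**
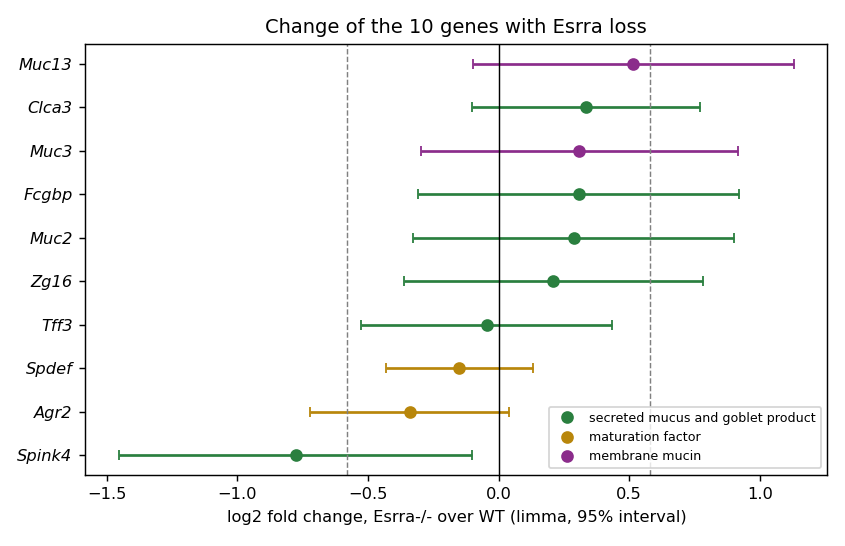
Log2 fold change of each gene, Esrra-/- over WT, with the 95% interval of the limma fit and dashed lines at −0.58 and 0.58. Only the interval of Spink4 leaves out 0, at −1.45 to −0.10.

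In WT, Zg16 had the highest level of the 10 genes and Spdef the lowest. By their WT means the order was Zg16, Tff3, Muc13, Spink4, Muc3, Agr2, Fcgbp, Clca3, Muc2 and Spdef. The WT ranges overlapped for Muc13 and Spink4, Muc3 and Agr2, Muc3 and Fcgbp, Agr2 and Fcgbp, and Fcgbp and Clca3. The order within these pairs is thus not set by these libraries. In Esrra-/- the mean of Muc13 stood above that of Tff3, with ranges that overlapped, and Muc13 no longer overlapped Spink4. The mean of Agr2, at 325 FPKM, stood below those of Fcgbp (462 FPKM) and Clca3 (359 FPKM), and its range overlapped that of Clca3. FPKM is a level per length of transcript, and the length used for a mucin counts here: in GENCODE M1 the longest annotated transcript is 6909 bases for Muc2 and 1849 bases for Muc3, in genes that span 64.3 and 15.2 kb. A comparison of 1 gene between genotypes depends on the length only where it differs between libraries. Whether it did is not given in the sources used here.

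Muc2 encodes the gel-forming mucin that makes up the frame of intestinal mucus (mm9 chr7:148876268-148940595, plus strand). It had 136, 78.2 and 93.1 FPKM in WT and 155, 124 and 93.7 FPKM in Esrra-/-. The highest value was in Esrra-/- replicate 1 and the lowest in WT replicate 2, and the groups overlapped (log2 fold change 0.29, SE 0.26, limma adjusted p = 0.726). It was 0.11 without WT replicate 2 or Esrra-/- replicate 1, 0.51 without WT replicate 1 and 0.48 without Esrra-/- replicate 3.

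Fcgbp, the IgG Fc-binding protein, is secreted with Muc2 and is found bound to it in mucus (mm9 chr7:28856255-28905881, plus strand). Its levels were 467, 390 and 272 FPKM in WT and 560, 463 and 362 FPKM in Esrra-/-. Like Muc2, it was highest in Esrra-/- replicate 1, then in WT replicate 1 and then in Esrra-/- replicate 2, and its groups overlapped (log2 fold change 0.31, SE 0.26, limma adjusted p = 0.704). It was 0.09 without WT replicate 3, 0.16 without Esrra-/- replicate 1, 0.48 without WT replicate 1 and 0.47 without Esrra-/- replicate 3. The ratio of Fcgbp to Muc2 was 2.93 to 4.98 in WT and 3.62 to 3.86 in Esrra-/-.

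Zg16 encodes a small lectin-like protein of goblet cell granules that binds the cell wall of Gram-positive bacteria (mm9 chr7:134193670-134195491, minus strand). It had 3451, 4309 and 4052 FPKM in WT and 4593, 4415 and 4599 FPKM in Esrra-/-. All Esrra-/- values lay above all WT values, by a small margin over WT replicate 2, and the mean was 115% of that in WT (log2 fold change 0.21, SE 0.24, limma adjusted p = 0.782). The log2 fold change was 0.12 without WT replicate 1, the lowest library, and 0.41 under quantile normalization (limma unadjusted p = 0.0410, adjusted p = 0.377). Zg16 is also made by the acinar cells of the pancreas. The other 12 genes of the acinar list summed to 2.87 to 5.34 FPKM per library, the most abundant was Cela1 with at most 3.56 FPKM, and 7 of them, among them Cpa1, Prss2 and Pnlip, were listed at 0 in all 6 libraries.

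Tff3, the trefoil peptide of goblet cells, which aids repair of the epithelium, lies on mm9 chr17:31262251-31266591 (minus strand). It had 1804, 2126 and 1864 FPKM in WT and 1929, 1841 and 1830 FPKM in Esrra-/-. All 3 Esrra-/- values fell within the WT range. The log2 fold change was −0.05 (SE 0.21, 95% interval −0.53 to 0.44, limma adjusted p = 0.951), and it was 0.20 under quantile normalization.

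Clca3, now Clca1, encodes a secreted metalloprotease that processes the mucus gel (mm9 chr3:144667501-144695740, minus strand). It belongs to a cluster of related genes, and how reads were shared among them is not given in the sources used here. Its levels were 307, 330 and 229 FPKM in WT and 363, 361 and 354 FPKM in Esrra-/-. All Esrra-/- values were above WT, and WT replicate 3 was the lowest (log2 fold change 0.33, SE 0.19, limma adjusted p = 0.558). Within the libraries with Y-linked transcripts the log2 difference was 0.19, and in the pair without them it was 0.63, and without WT replicate 3 it was 0.18.

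Spink4, a Kazal-type inhibitor of serine proteases found in goblet cell secretion, was the gene of the 10 that was called (mm9 chr4:40867085-40878428, plus strand). It had 1123, 1524 and 1019 FPKM in WT and 731, 940 and 505 FPKM in Esrra-/-. Even the highest Esrra-/- library lay below the lowest WT library, and the mean was 59.3% of that in WT. The log2 fold change was −0.78 (SE 0.29, 95% interval −1.45 to −0.10, limma unadjusted p = 0.0297, adjusted p = 0.410). The log2 difference was −0.66 within the libraries with Y-linked transcripts and −1.01 in the pair without them. The call was lost without WT replicate 1 (log2 fold change −0.83), WT replicate 2 (−0.61), Esrra-/- replicate 1 (−0.81) or Esrra-/- replicate 3 (−0.54), and under quantile normalization (−0.63), and over the alternatives run its adjusted p was between 0.0836 and 0.778.

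Within each genotype Spink4 was highest in replicate 2 and lowest in replicate 3. Markers of Paneth cells, the antimicrobial cells of the crypt base, had the same order. The 9 Paneth markers in the table summed to 15771, 30018 and 13009 FPKM in WT and to 8571, 12602 and 2598 FPKM in Esrra-/-. The log2 fold change was below 0 for all 9 (median −1.47, against 0.03 over all genes tested), 5 were called lower, against 3.28% of all genes tested, and none was at 0. By limma 0 of the 9 had an adjusted p under 0.05. Defa24, the most abundant, had 4426, 8230 and 4022 FPKM in WT and 2459, 3399 and 805 FPKM in Esrra-/-. Several of these defensin genes are near-identical copies, so their separate values are uncertain.

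The 8 markers of crypt and stem cells also had log2 fold changes below 0 (median −0.75). Of these, 1 was called lower, Smoc2 (limma adjusted p = 0.247), against the same 3.28% of all genes tested. Their sums were 159 to 293 FPKM in WT and 66.7 to 212 FPKM in Esrra-/-. Olfm4, the most abundant of them, was 167, 205 and 104 FPKM in WT and 94.7, 149 and 36.1 FPKM in Esrra-/-. Among all other genes with a mean above 5 FPKM, the 5 nearest to Spink4 in their deviations over the 6 libraries were Parp1, Rrm1, Paics, Cks2 and Rrm2, with root mean square differences of 0.0766 to 0.122 on the log2 scale. This search for a single member was chosen after the values were seen. The part of the Paneth and crypt transcripts in the Spink4 result was not tested.

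**Figure D3:**
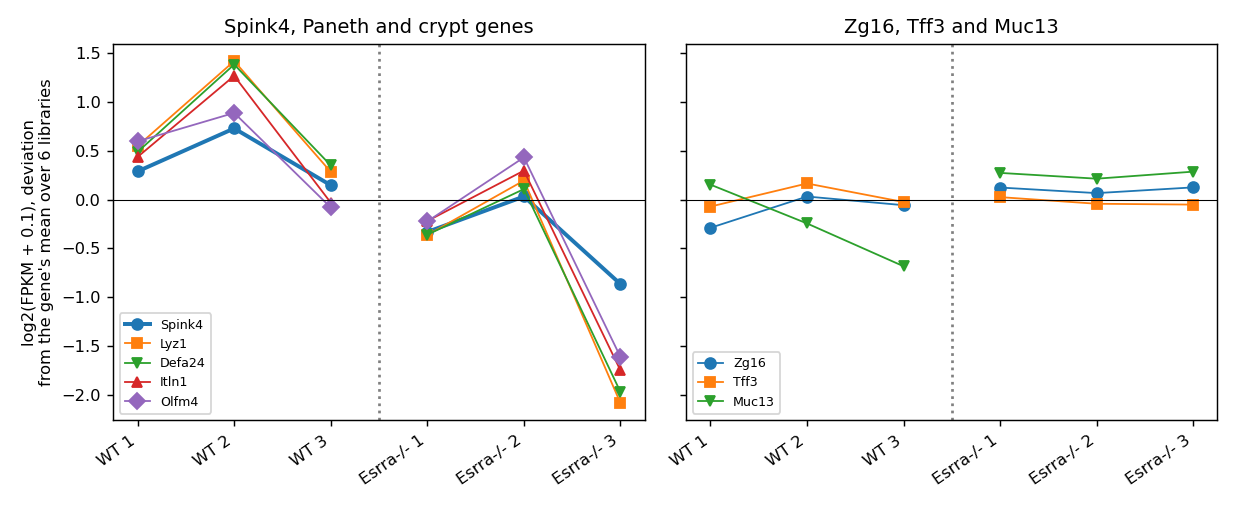
Deviation of log2(FPKM + 0.1) from each gene's mean over the 6 libraries, with lines joining the points of 1 gene within a genotype. Spink4 (left) is highest in replicate 2 and lowest in replicate 3 of each genotype, as are Lyz1, Defa24, Itln1 and Olfm4, while Zg16, Tff3 and Muc13 (right) vary little among the Esrra-/- libraries.

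Agr2 encodes a disulfide isomerase of the endoplasmic reticulum that is needed to make Muc2 protein (mm9 chr12:36719494-36730674, plus strand). It had 385, 453 and 396 FPKM in WT and 355, 310 and 309 FPKM in Esrra-/-. The groups did not overlap and the mean was 78.9% of that in WT, but the change was short of a call (log2 fold change −0.34, SE 0.16, 95% interval −0.72 to 0.04, limma adjusted p = 0.505). It was −0.33 in the libraries with Y-linked transcripts and −0.35 in the pair without them.

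Spdef encodes the ETS transcription factor that drives maturation of goblet and Paneth cells (mm9 chr17:27851297-27865896, minus strand). It was 8.40, 8.36 and 7.43 FPKM in WT and 7.83, 7.06 and 6.88 FPKM in Esrra-/-. The groups overlapped through Esrra-/- replicate 1 and WT replicate 3 (log2 fold change −0.15, SE 0.12, 95% interval −0.43 to 0.13, limma adjusted p = 0.684).

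Muc13 and Muc3 are membrane mucins of the enterocyte brush border and are not confined to goblet cells. Muc13 (mm9 chr16:33794123-33820020, plus strand) had 1786, 1356 and 1000.4 FPKM in WT and 1941, 1863 and 1958 FPKM in Esrra-/-. The Esrra-/- values were close together and all above WT, where replicate 3 was the lowest, and the mean was 139% of that in WT. This was the largest positive log2 fold change of the 10 genes, at 0.52, and it was not called (SE 0.26, 95% interval −0.10 to 1.13, limma unadjusted p = 0.0878, adjusted p = 0.531). The log2 difference was 0.29 in the libraries with Y-linked transcripts and 0.97 in the pair without them. Muc13 was called higher under quantile normalization (log2 fold change 0.84) and without WT replicate 1 (0.72), and its log2 fold change was 0.30 without WT replicate 3.

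Muc3 (mm9 chr5:137610794-137625994, minus strand) was 372, 630 and 496 FPKM in WT and 542, 533 and 768 FPKM in Esrra-/-. Esrra-/- replicate 3 was the highest library and WT replicate 1 the lowest, and the groups overlapped (log2 fold change 0.31, SE 0.26, limma adjusted p = 0.696). It was 0.11 without WT replicate 1, 0.14 without Esrra-/- replicate 3 and 0.49 without WT replicate 2. Of 12 enterocyte markers, 11 had a positive log2 fold change, with a median of 0.27 and none called, and their sums were 40337 to 65563 FPKM in WT and 49837 to 69674 FPKM in Esrra-/-. The most abundant, Apoa4, had 13121, 13965 and 19576 FPKM in WT and 22014, 18578 and 21173 FPKM in Esrra-/-. None of the 12 was at 0, and their part in the values of Muc13 and Muc3 was not tested.

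Genes that act around these 10 were taken from 6 lists of other goblet genes, transcription factors, folding and transport proteins, enzymes of mucin O-glycosylation, other mucins, and genes of mucus processing and ion transport. Of the 97 genes listed, 95 were in the table and 81 were tested. Of these, 1 was called lower (1.23%, against 3.28% of all genes tested) and 1 higher (1.23%, against 1.35%), and their median log2 fold change was −0.0002. By limma 0 had an adjusted p under 0.05, and 6 had an unadjusted p under 0.05, where 10.8% of all genes tested did.

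Among 20 tested goblet companions, Klk1, a kallikrein protease, was called higher and Ccl9, a chemokine, lower. Klk1 had 29.4, 70.7 and 55.0 FPKM in WT and 72.8, 91.5 and 88.7 FPKM in Esrra-/-, groups that did not overlap (log2 fold change 0.79, SE 0.31, limma adjusted p = 0.427). Ccl9 had 5.79, 7.60 and 5.10 FPKM in WT and 3.58, 4.71 and 2.03 FPKM in Esrra-/-, again without overlap and lowest in Esrra-/- replicate 3 (log2 fold change −0.88, SE 0.31, limma adjusted p = 0.393). The call of Klk1 was lost without WT replicate 1 (log2 fold change 0.43), Esrra-/- replicate 2 (0.72) or Esrra-/- replicate 3 (0.75), under quantile normalization (0.75) and without both libraries that lack Y-linked transcripts (0.84). That of Ccl9 was lost without WT replicate 2 (−0.72) or Esrra-/- replicate 3 (−0.55). The most abundant companions were Guca2a, which encodes guanylin, and Oit1, with log2 fold changes of −0.13 (SE 0.32) and 0.27 (SE 0.19).

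None of the 9 tested factors of secretory fate and maturation was called in either direction. The most abundant were Xbp1, a factor of the unfolded protein response that secretory cells depend on, and Elf3, an epithelial ETS factor. Xbp1 had 128, 115 and 122 FPKM in WT and 136, 131 and 162 FPKM in Esrra-/-, without overlap (log2 fold change 0.23, SE 0.15, limma adjusted p = 0.605), and Elf3 had a log2 fold change of −0.07 (SE 0.24). The 10 folding and transport genes had a median log2 fold change of −0.15 and no call. The most abundant, Txndc5, a disulfide isomerase, stood at −0.01 (SE 0.14), and Kdelr3, a receptor that returns proteins to the endoplasmic reticulum, at 0.42 (SE 0.20).

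Of 32 tested genes of mucin O-glycosylation, 22 had a log2 fold change above 0 and 10 below it (median 0.07), and none was called. Papss2, which makes the sulfate donor for sulfated sugars, had a WT range of 131 to 228 FPKM. Esrra-/- replicates 1 and 2 lay below it, at 121 and 84.9 FPKM, and replicate 3 above it, at 346 FPKM (log2 fold change −0.27, SE 0.50). St6galnac1, a sialyltransferase of mucin sugars, was listed at 0 in all 6 libraries. Of the other mucins, Muc4 had a mean above 1 FPKM, at 5.10 to 11.3 FPKM in WT and 5.06 to 7.64 FPKM in Esrra-/- (log2 fold change −0.19, SE 0.30). Muc20, the next in abundance, was at most 0.250 FPKM, and Muc5ac, the gel-forming mucin of the stomach surface, was listed at 0 in all 6 libraries, as was Tff1.

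The 9 tested genes of mucus processing and ion transport had a median log2 fold change of 0.06 and no call. Mep1b, a brush-border protease that frees mucus from goblet cells, had 518, 462 and 574 FPKM in WT and 594, 468 and 708 FPKM in Esrra-/-, and its groups overlapped (log2 fold change 0.17, SE 0.21, limma adjusted p = 0.793). Itln1, an intestinal lectin made by goblet and Paneth cells, had 801, 1425 and 579 FPKM in WT and 508, 727 and 176 FPKM in Esrra-/-, with the order of Spink4 among the replicates of each genotype but with groups that overlapped (log2 fold change −1.12, SE 0.56, limma adjusted p = 0.528). It also stands in the Paneth list.

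**Figure D4:**
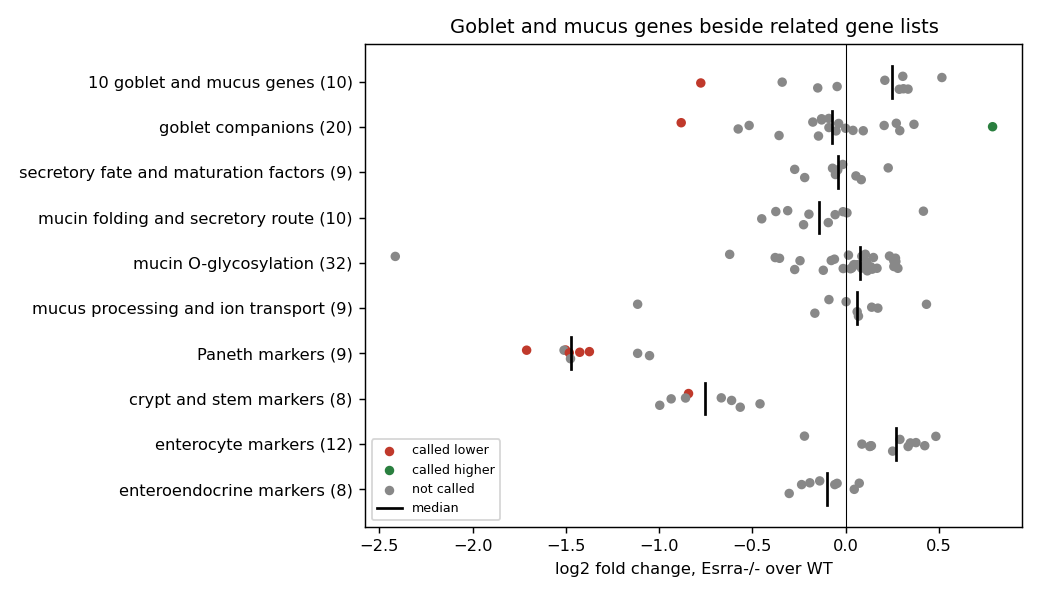
Log2 fold change of each tested gene, Esrra-/- over WT, in the 10 genes and in related lists (number tested in parentheses), with the median of each list as a black line and called genes in colour. The medians are 0.25 for the 10 genes, −0.07 for goblet companions, −1.47 for Paneth markers and 0.27 for enterocyte markers.

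In log2 units, the 6 secreted products deviated from their own means by an average of 0.06, 0.07 and −0.21 in the WT libraries and 0.16, 0.10 and −0.18 in the Esrra-/- libraries. This average was lowest in replicate 3 of each genotype, but the 6 genes did not share 1 pattern. In Esrra-/- replicate 3 Spink4 was at −0.87, Muc2 at −0.23, Fcgbp at −0.17 and Tff3 at −0.05, but Zg16 at 0.13 and Clca3 at 0.15. Of 7282 other genes with a mean above 5 FPKM, the 5 nearest to the average of the 6 products over the 6 libraries were Gnl3l, Brd8, Xrn2, Tsn and Chd4, with root mean square differences of 0.0310 to 0.0495. Among the nearest 50 genes there was 1 of the 64 related genes above that level, Txndc5. The median root mean square difference was 0.233 over these related genes and 0.270 over all 7282, and such likeness says nothing of shared control.

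In the remaining marker lists no tested gene was called, with 8 of 8 enteroendocrine, 4 of 7 tuft, 8 of 10 immune, 1 of 10 gastric and 1 of 8 mesenchymal markers tested. Enteroendocrine markers, led by Gip, summed to 284 to 438 FPKM in WT and 304 to 352 FPKM in Esrra-/-, and tuft cell markers, led by Rgs13, to 10.2 to 15.4 and 9.19 to 13.9 FPKM. Immune markers ranged from 226 to 1319 FPKM in WT and from 662 to 1931 FPKM in Esrra-/-, mostly from Cd74, which was lowest in WT replicate 3. Gastric and Brunner's gland markers, led by Gkn3, were at most 4.15 FPKM in sum, with Muc5ac, Tff1, Gkn1 and Gkn2 listed at 0, and mesenchymal markers, led by Vim, at most 5.73 FPKM.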

How the data were processed

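Per the labels and the paper's methods, the authors checked paired-end reads with FastQC 0.11.3, quantified them with Kallisto against mouse mm9 and calculated FPKM with DESeq2. The transcript annotation is not given in the sources used here. A second deposited file holds the authors' own DESeq2 comparison (mean normalized count, log2 fold change, standard error, statistic and p-values) and was not used. The FPKM values differ in sum between libraries (707094 to 999902), while median-ratio factors computed here are 1.00 to 1.01, and the FPKM values do not give the number of reads behind each library. The most common ratio of low values, taken as WT replicate 1 over another library, was between 0.827 and 1.02. The precision of a value is given by the spread between mice.

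Genotypes were compared with limma 3.58.1 in R 4.3.3 (lmFit and eBayes with a trend) on log2(FPKM + 0.1) for genes with a mean FPKM above 1, without a covariate, two-sided, with Benjamini-Hochberg adjustment. The code was tested on simulated data. The 10 genes and all lists were chosen with earlier results of these data known. Named were the 10 genes, Esrra, in each related list the called genes and the 2 most abundant, the most abundant gene of each marker list, and the 5 nearest genes by root mean square difference. Other genes (Fabp1, Vil1, Col1a1, Smoc2, Cela1, Cpa1, Prss2, Pnlip, Lyz1, St6galnac1, Muc5ac, Tff1, Gkn1, Gkn2 and those nearest to Spink4) were chosen after their values were seen. Gfi1, Lypd8 and Pla2g2a were not found under these symbols. Positions are from GENCODE M1 on NCBIM37 (mm9), and upstream sequences from RefSeq (GRCm38.p6). The alternatives were another pseudocount, other filters, quantile and median-ratio scaling, no trend, a replicate block, a covariate for Y-linked transcripts, each library left out and an adjusted p threshold, and, chosen after seeing the data, both libraries without Y-linked transcripts left out.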

Additional observations from a re-analysis of the deposited data

How the results depend on the processing

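The log2 fold change of Tff3 turned from −0.05 to 0.20 under quantile normalization and ranged from −0.093 to 0.025 with each library left out. The other 9 genes kept their sign under every alternative run. Under quantile normalization 0 of the 10 genes were called lower and 1 higher, and of the related genes 2 lower and 0 higher. At an adjusted p under 0.05 each of these counts was 0. With each library left out, the genes called lower and higher were 0 to 1 each, and the related genes 0 to 4 lower and 0 to 1 higher, the 4 without Esrra-/- replicate 2. The Y-linked covariate gave 2 related genes lower, and leaving out both libraries without Y-linked transcripts gave 3 lower and 0 higher. Over all genes, 348 were called lower and 143 higher, against 528 and 277 without a filter and 533 and 206 without Esrra-/- replicate 2, and the count at an adjusted p under 0.05 went from 4 to between 0 and 52.

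The replicate numbers are shared by the genotypes, and the deviations of same-numbered libraries correlated at 0.01, 0.26 and 0.38 across genes. WT replicates 2 and 3 correlated best with the library of their own number, and WT replicate 1 with Esrra-/- replicate 2 (0.18). Deviations within groups of 3 libraries are tied to each other, so these correlations cannot decide whether the numbers mark pairs. The main fit did not pair them. With the replicate block 2 related genes were called lower, and the calls of the 10 genes did not change. The limma unadjusted p was then under 0.05 for Fcgbp (0.0190), Clca3 (0.0460), Spink4 (0.00109), Agr2 (0.0308) and Muc13 (0.0352). With the Y-linked covariate it was so for Clca3 (0.0347), Spink4 (0.00443), Agr2 (0.0224) and Muc13 (0.0324). None of the 10 had an adjusted p under 0.05 in either fit. The share of all genes with an unadjusted p under 0.05 was not counted for these fits. With 3 mice per genotype the limits are wide: the 95% interval of Muc13, for example, ran from −0.10 to 1.13.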

Other observations

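These values were singled out after the data had been seen. Of the 10 genes, 4 (Tff3, Zg16, Clca3 and Muc13) had a coefficient of variation under 3% among the Esrra-/- libraries (1.29% for Clca3 to 2.93% for Tff3), as did 3.42% of all genes tested, while in WT theirs were 8.86% to 28.5%. The coefficient was lower in Esrra-/- than in WT for 8 of the 10 genes and for 51.6% of all genes tested. With 3 mice per genotype these spreads are themselves poorly known, and the difference was not tested.

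The ratio of Zg16 to Tff3 within a library, which no scaling of the library moves, was 1.91, 2.03 and 2.17 in WT and 2.38, 2.40 and 2.51 in Esrra-/-. The ratio of Spink4 to Zg16 was 0.251 to 0.354 in WT and at most 0.213 in Esrra-/-. The genotypes were apart in both ratios, which for Spink4 to Zg16 follows from the values of the 2 genes themselves. The ratio of Muc13 to Muc3 overlapped, at 2.02 to 4.80 in WT and 2.55 to 3.58 in Esrra-/-, as did that of Fcgbp to Muc2.

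St3gal4, a sialyltransferase and the most abundant gene of the O-glycosylation list, had 562, 310 and 693 FPKM in WT and 552 and 861 FPKM in Esrra-/- replicates 1 and 3, but 1.58 FPKM in Esrra-/- replicate 2. Its log2 fold change over all 6 libraries was −2.41 (SE 2.16, limma adjusted p = 0.719).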
